A study of Mus musculus with 6 samples.

Results

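The genes described here are 9 immediate early and stress-induced genes, *Fos*, *Egr2*, *Atf3*, *Nfkbia*, *Sgk1*, *Ptgs2*, *Btg2*, *Gadd45b* and *Ier5*, and their level in mouse brain. They were taken by name: every probe set whose single annotated symbol was one of the 9 was kept, which gave 61 of 58919 tested probe sets, in 9 of 5017 genes. The 5017 are the genes with a probe set of their own in the deposited table, which may hold only part of the array. Shares of all genes refer to these 5017. All 9 genes were measured, with 4 probe sets for *Fos*, 5 for *Egr2*, 6 for *Atf3*, 7 for *Nfkbia*, 17 for *Sgk1*, 13 for *Ptgs2*, 2 for *Btg2*, 4 for *Gadd45b* and 3 for *Ier5*. Total RNA of brain was hybridised to 6 arrays, 1 per sample, whose probe sets each read a short stretch of a transcript, several to a gene. The knockout group is 3 samples of the genotype APPPS1-FVBxABCC1, and the control group is 3 samples of the genotype APPPS1-FVB. Both groups therefore carry APPPS1, a transgene that drives mutant human APP and presenilin 1 from a neuronal *Thy1* promoter and leads to amyloid plaques, so no sample is free of amyloid pathology by its label, and FVB is an inbred strain. Age, sex, brain region and batch are not given in the labels, and nothing there says that each sample came from an animal of its own. The p-values are therefore a measure of how far these samples lie apart, which may be technical. *Abcc1*, the transporter gene that the knockout targets, was not analysed here, so the labels could not be checked on it.

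Immediate early genes are transcribed within minutes of a stimulus, without new protein synthesis, from promoters that CREB and the serum response factor already occupy. In neurons the stimulus is synaptic activity and calcium entry, and the genes of this class are used as markers of recently active cells, while injury, cytokines, DNA damage and glucocorticoids induce the stress genes among them. Their transcripts are short-lived, so a tissue sample holds the state of the brain at the time it was taken, handling included.

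The promoters of 5 of the genes are shown because they carry motifs of the kind these stimuli are known to act through. Each is a RefSeq window of 300 bases on build GRCm38.p6, from 250 bases before to 50 after an annotated transcript start, printed along the strand of the gene with the motif matches in capitals. *Fos*, chr12:85473640-85473939 on the plus strand, holds 2 cAMP response element cores (TGACG), an NF-kB site match and a TATA box (TATAAA). *Egr2*, chr10:67537619-67537918 on the plus strand, holds 2 such cores, 1 of them on the other strand, and a serum response element (CArG box). It is 1 of 5 windows for *Egr2*, and another of these holds 2 overlapping NF-kB site matches and neither a core nor a serum response element. *Btg2*, chr1:134079106-134079405 on the minus strand, holds a full cAMP response element (TGACGTCA). *Nfkbia*, chr12:55492598-55492897 on the minus strand, holds an NF-kB site and a TATA box match on the other strand. *Sgk1*, chr10:21993640-21993939 on the plus strand, is the window, of 6 for this gene, that holds a glucocorticoid response element (AGAACA and TGTTCT with 3 bases between).
Fos: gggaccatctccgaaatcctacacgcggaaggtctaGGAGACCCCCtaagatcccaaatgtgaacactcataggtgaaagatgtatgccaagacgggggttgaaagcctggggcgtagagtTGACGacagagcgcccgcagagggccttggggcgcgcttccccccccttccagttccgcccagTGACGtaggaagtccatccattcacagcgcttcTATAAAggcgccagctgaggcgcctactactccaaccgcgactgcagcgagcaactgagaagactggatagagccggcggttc
Egr2: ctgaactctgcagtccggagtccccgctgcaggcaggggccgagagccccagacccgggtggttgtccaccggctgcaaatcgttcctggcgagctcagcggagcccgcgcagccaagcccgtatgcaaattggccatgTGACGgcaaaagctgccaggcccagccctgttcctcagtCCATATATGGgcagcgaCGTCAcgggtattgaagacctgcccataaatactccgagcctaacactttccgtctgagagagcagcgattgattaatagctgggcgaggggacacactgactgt
Btg2: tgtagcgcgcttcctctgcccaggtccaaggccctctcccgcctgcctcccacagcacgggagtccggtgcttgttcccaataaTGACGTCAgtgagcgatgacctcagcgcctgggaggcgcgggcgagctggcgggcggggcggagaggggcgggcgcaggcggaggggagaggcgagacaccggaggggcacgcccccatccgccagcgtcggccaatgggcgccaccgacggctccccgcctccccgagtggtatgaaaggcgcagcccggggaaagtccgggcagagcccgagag
Nfkbia: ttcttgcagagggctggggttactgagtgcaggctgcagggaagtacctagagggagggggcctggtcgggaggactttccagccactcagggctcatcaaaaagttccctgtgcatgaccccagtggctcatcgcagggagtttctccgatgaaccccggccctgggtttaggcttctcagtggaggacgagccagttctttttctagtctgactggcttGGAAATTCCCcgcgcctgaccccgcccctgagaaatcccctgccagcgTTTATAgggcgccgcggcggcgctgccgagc
Sgk1: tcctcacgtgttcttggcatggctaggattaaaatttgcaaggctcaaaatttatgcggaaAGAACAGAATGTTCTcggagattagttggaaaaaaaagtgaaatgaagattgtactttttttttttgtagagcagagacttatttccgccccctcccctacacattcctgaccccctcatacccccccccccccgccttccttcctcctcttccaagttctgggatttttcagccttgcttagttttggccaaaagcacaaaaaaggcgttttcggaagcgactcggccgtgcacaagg

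Both strands were searched, and the core TGACG lies inside the full element. Of 32851 promoter windows in the table, 20.8% held the core, 1.79% the full cAMP response element, 1.63% a serum response element, 8.46% an NF-kB site and 13.6% a TATA box. The glucocorticoid response element in this exact form was in 3 windows, that of *Sgk1* among them. The AP-1 site TGACTCA (5.20% of windows) and the EGR site GCGTGGGCG (0.612%) were found in no window of the 9 genes. *Ptgs2* and *Atf3* each held 1 core, *Gadd45b* held a TATA box, and *Ier5* held none of the motifs searched. All 9 genes had at least 1 window, 18 in all. A match describes the letters of the window and is not evidence that a factor binds there.

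None of the 9 genes differed between knockout and control samples beyond the spread of 3 against 3. Fitted with limma on the mean log2 signal of all probe sets of a gene, 0 of 9 passed an adjusted p of 0.05, and 0% of all 5017 genes did. The adjusted p ran from 0.346 for *Atf3* to 0.973 for *Egr2*. Unadjusted and as deposited, *Atf3* alone had a limma p below 0.05, on the lower side. There 1 of 9 compares with 6.12% of all genes, and 0 of 9 on the higher side compares with 7.95%. With other processing or arrays left out, 0 to 3 of the 9 had such a p, as did 473 to 849 of all genes. By sign, 7 of the 9 gene means were lower in the knockout and 2 were higher, with a median log2 difference of -0.11, while 51.4% of all genes were lower, with a median of -0.00444. With each array centred on its median, *Egr2* changed sign and 8 of 9 were lower, but so were 60.8% of all genes. For each of the 9 the knockout and control ranges overlapped, whereas all 3 knockout values lay below all 3 control values in 8.85% of all genes and above them in 11.3%.

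**Figure D1:**
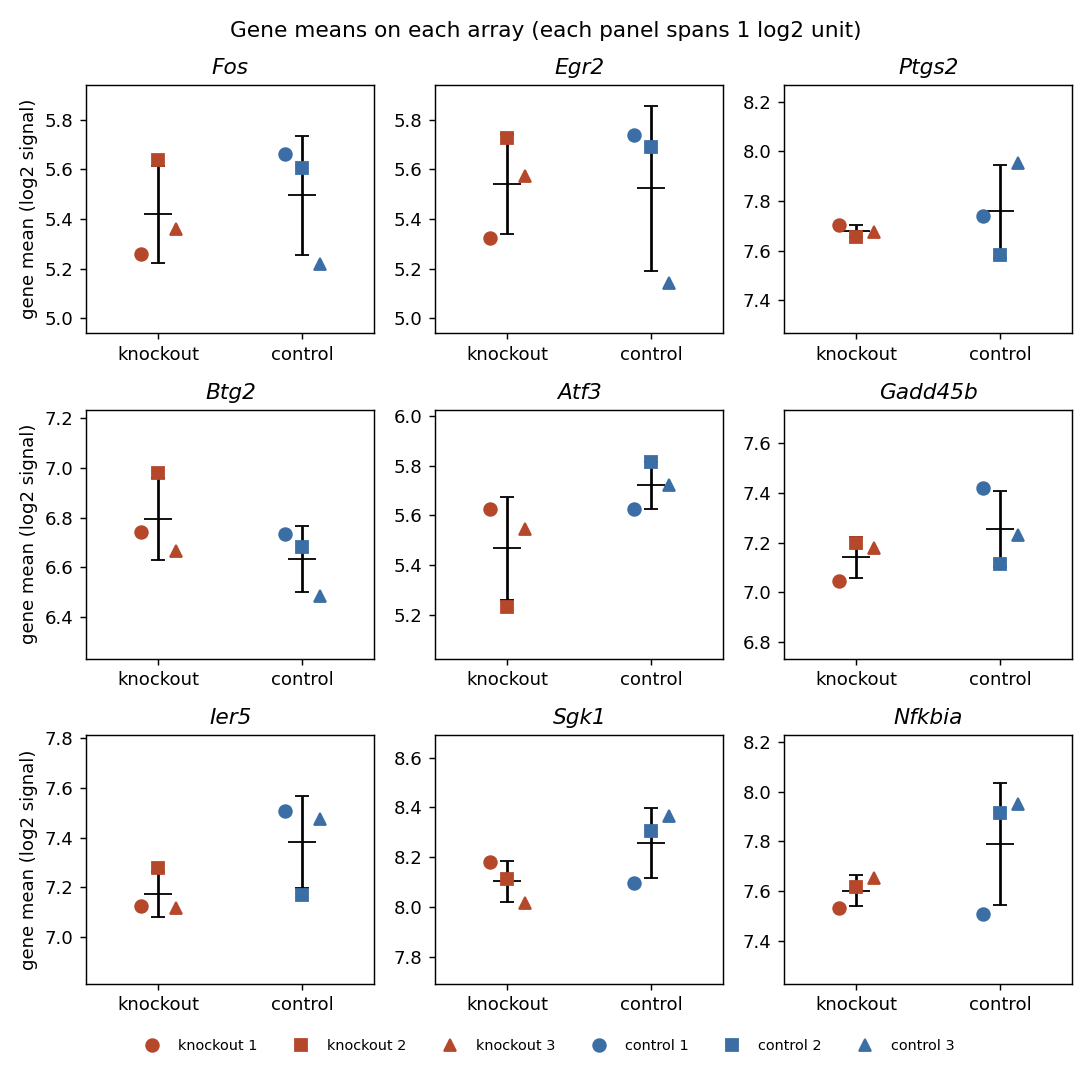
Mean log2 signal of the probe sets of each gene on the 3 knockout arrays (red) and the 3 control arrays (blue), with the group mean and SD in black. Each panel spans 1 log2 unit, and the number of an array was not used to pair arrays across groups. The groups overlap in all 9 panels, with control 3 the lowest array for *Fos*, *Egr2* and *Btg2* and the highest for *Ptgs2*, *Sgk1* and *Nfkbia*.

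Of the 6 arrays 3 stood apart in genes that mark tissue or cell types. *Gabra6*, the GABA-A receptor subunit of cerebellar granule cells, was at 3.53, 5.74 and 3.69 on knockout 1, knockout 2 and knockout 3, and at 3.87, 3.82 and 6.70 on control 1, control 2 and control 3. Knockout 2 and control 3 were thus the high arrays, 1 in each group. The chemokine gene *Ccl3*, made by activated microglia, was at 7.70, 4.72 and 7.58 on the knockout arrays and at 7.15, 7.25 and 7.12 on the control arrays, so knockout 2 was low. *Prl*, the prolactin gene of the pituitary, was at 5.59, 7.28 and 4.81 on the knockout arrays and at 6.65, 5.02 and 4.94 on the control arrays, so knockout 2 and control 1 were high. The pituitary growth hormone gene *Gh* was highest on knockout 2, at 5.71, against 4.45 to 4.94 on the other arrays. Control 1 was also the highest array for *Fos*, *Egr2*, *Gadd45b* and *Ier5*, and the part of these pituitary genes in their values was not tested. *Gabra6*, *Ccl3*, *Prl* and *Gh* were chosen after their values were seen. A count of the genes whose mean lay more than 1 log2 unit from the median of the other 5 arrays gave 11 on knockout 2, 2 on control 3, 1 on control 1 and 0 on the remaining arrays. All 4 measured of 14 microglial markers (*Cd68*, *Ptprc*, *Fcgr3* and *Fcer1g*) were lowest on knockout 2, and their mean was 6.01 there, against 6.68 and 6.81 on the other knockout arrays and 6.63 to 6.75 on the control arrays. The mean of the neuronal markers *Syt1*, *Map2* and *Camk2b*, 3 of 15 measured, was 10.67 to 10.75 on knockout arrays and 10.69 to 10.70 on control arrays. Of 11 astrocyte markers 5 were measured and 4 had a lower knockout mean, and their mean was 9.70 to 9.87 on knockout arrays and 9.84 to 10.03 on control arrays. For *Gja1* (-0.15, limma adjusted p = 0.290) and *S100b* (-0.21, limma adjusted p = 0.252) every knockout value lay below every control value, and *Gfap* (-0.48, limma adjusted p = 0.427) was highest on control 3. The groups were also apart for the red cell marker *Slc4a1*, 1 of 8 measured, at 4.89 to 5.06 on knockout arrays and 5.24 to 5.47 on control arrays (-0.36, limma adjusted p = 0.215). The marker means of 3 further cell types were not lower in the knockout, with 2 markers measured for each. The log2 difference was 0.018 for oligodendrocytes, 0.020 for endothelium and 0.092 for choroid plexus, and in each list 1 marker was lower and 1 higher. The part of these markers in the lower means of the 9 genes was not tested. Array medians over all tested probe sets lay between 7.04 and 7.09. The medians of the features taken as controls, a measure of background, were 4.27, 4.29 and 4.20 on the knockout arrays and 4.09, 4.16 and 4.11 on the control arrays, higher on every knockout array. The part of this background in the results was not tested, and the values were used as deposited. In brain homogenate, fewer cells of a type and less RNA per cell cannot be told apart.

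*Fos* encodes the c-Fos subunit of AP-1, the most used marker of recent neuronal activity. It was at 5.26, 5.64 and 5.36 on knockout 1, knockout 2 and knockout 3, and at 5.66, 5.61 and 5.22 on control 1, control 2 and control 3. Both groups held high and low arrays, and the lowest and highest were both controls. The log2 difference was -0.08 (SE 0.14, 95% confidence interval -0.39 to 0.24, limma adjusted p = 0.837), which in fold covers 0.763 to 1.18. *Egr2* encodes a zinc finger factor induced in neurons by activity and also needed by myelinating Schwann cells. It was at 5.32, 5.73 and 5.57 on the knockout arrays and at 5.74, 5.69 and 5.14 on the control arrays, with control 3 below all others. The log2 difference was 0.02 (SE 0.17, interval -0.37 to 0.40, limma adjusted p = 0.973). Control 3 was the lowest array at all 5 probe sets of *Egr2*. The sign of both genes turned when single arrays were left out. For *Fos* the log2 difference was 0.00375 without knockout 1 and 0.00667 without control 1, and for *Egr2* it was -0.07 without knockout 2 and -0.17 without control 3.

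With knockout 2 and control 3, the arrays high in *Gabra6*, both left out, the log2 differences were -0.32 for *Fos* and -0.27 for *Egr2*, with limma adjusted p of 0.512 and 0.513. For both genes these are the highest knockout and the lowest control array, so leaving them out lowers the difference and narrows the spread by construction, and the values support nothing. The choice was made after the data were seen, and the part of *Gabra6* and the tissue it marks in the *Fos* and *Egr2* values was not tested. Of the other genes, the log2 difference on these 4 arrays was -0.13 for *Atf3*, -0.12 for *Nfkbia*, -0.10 for *Sgk1* and 0.028 for *Ptgs2*. It was -0.005 for *Btg2*, -0.15 for *Gadd45b* and -0.22 for *Ier5*, and 0 of 9 passed.

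*Atf3* encodes a CREB-family factor that is induced by axon injury, amino acid shortage and other cell stress. It was at 5.63, 5.23 and 5.54 on the knockout arrays, and at 5.62, 5.82 and 5.72 on the control arrays. Knockout 2 was far below the rest, and knockout 1 lay just above control 1, so that the groups overlapped. The log2 difference of -0.25 (SE 0.10, interval -0.49 to -0.01) was the largest of the 9 in size, with a raw p of 0.0423 and a limma adjusted p of 0.346. All 6 probe sets of *Atf3* were lower in the knockout, and 5 of the 6 had their lowest value on knockout 2. Without knockout 2 the difference was -0.14 (SE 0.07, interval -0.30 to 0.03). Knockout 2 is also the array with the lowest microglial markers, and their part in the *Atf3* value was not tested. At 5 of its 6 probe sets *Atf3* was among the dimmest 1 in 3 of all probe sets, as were 2 of 4 for *Fos* and 3 of 5 for *Egr2*.

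*Nfkbia* and *Sgk1* are read-outs of cytokine and glucocorticoid signalling. *Nfkbia* encodes IkB-alpha, which holds NF-kB in the cytoplasm and is resynthesised as NF-kB acts, a negative feedback. It was at 7.53, 7.62 and 7.65 on the knockout arrays, and at 7.51, 7.91 and 7.95 on the control arrays. The knockout arrays were close to each other, and the controls split, with control 1 at the knockout level and the other 2 above every knockout array. The log2 difference was -0.19 (SE 0.11, interval -0.45 to 0.07, limma adjusted p = 0.491), and all 7 probe sets were lower in the knockout. It was -0.33 without control 1, but -0.13 without control 2 and -0.11 without control 3. *Sgk1* encodes a serum- and glucocorticoid-regulated kinase that acts on ion channels and transporters. It was at 8.18, 8.11 and 8.01 on the knockout arrays and at 8.10, 8.31 and 8.37 on the control arrays, again with control 1 among the knockout values. The log2 difference was -0.15 (SE 0.08, interval -0.34 to 0.03, limma adjusted p = 0.428), and -0.23 without control 1 and -0.10 without control 3.

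The 17 probe sets of *Sgk1* did not all read alike. In 14 of 17 the knockout mean was lower, at a median of -0.21 over all 17. At probe set 10362088 it was lower by most, with 8.72, 8.80 and 8.66 on the knockout arrays and 8.89, 9.05 and 9.34 on the control arrays, so that the groups did not overlap there (log2 difference -0.37, SE 0.13, limma adjusted p = 0.621). At probe set 10362086 it was higher, with 9.62, 10.05 and 8.53 on the knockout arrays and 8.61, 9.0 and 9.16 on the control arrays. There knockout 1 and knockout 2 were above all controls and knockout 3 was below them, for a mean difference of 0.48 on the log2 scale (SE 0.39). Control 3 held the highest value at 10 of the 17 probe sets.

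*Ptgs2* encodes cyclooxygenase 2, the inducible enzyme that starts prostaglandin synthesis and is made in excitatory neurons under normal activity. Its gene mean was 7.70, 7.66 and 7.67 on the knockout arrays and 7.74, 7.58 and 7.95 on the control arrays. The knockout arrays differed by less than 0.1 log2 unit and lay inside the control range. The log2 difference was -0.08 (SE 0.09, interval -0.29 to 0.13, limma adjusted p = 0.719). Control 3 was the highest array at 9 of 13 probe sets. Without control 3 the difference was 0.017, higher by construction, since this is the highest control array of *Ptgs2*. With control 3 kept, it was -0.15 (SE 0.06) by the median of probe sets and -0.27 by the brightest probe set. With other processing or arrays left out, *Ptgs2* was lower in the knockout in 13 of 15 fits. Along the gene, 10 of 13 probe sets were lower and 3 were higher in the knockout, from -0.37 to 0.37. At 2 probe sets, 10350524 and 10350526, every knockout value lay below every control value. Probe set 10350524 had 8.96, 9.07 and 9.12 on the knockout arrays and 9.17, 9.27 and 9.52 on the control arrays, and differed by -0.27 on the log2 scale (SE 0.12, limma adjusted p = 0.656).

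The remaining 3 genes act on growth and DNA damage. *Btg2*, an antiproliferative gene that p53 and neuronal activity both induce, was at 6.74, 6.98 and 6.67 on the knockout arrays and at 6.74, 6.68 and 6.49 on the control arrays. It was the gene with the largest positive difference, 0.16 (SE 0.10, interval -0.06 to 0.39, limma adjusted p = 0.491), with knockout 2 at the top and control 3 at the bottom at both probe sets. Without knockout 2 it was 0.07 and without control 3 it was 0.0875, each less by construction, since these are its highest knockout and lowest control array. *Gadd45b*, a gene of the growth arrest and DNA damage family with a role in DNA demethylation after neuronal activity, was at 7.05, 7.20 and 7.18 on the knockout arrays and at 7.42, 7.12 and 7.23 on the control arrays. Its highest array was control 1, and its log2 difference was -0.11 (SE 0.08, interval -0.31 to 0.08, limma adjusted p = 0.572). Without control 1 it was -0.031, and by the brightest probe set it was -0.00333. *Ier5*, an immediate early gene linked to heat shock factor activity, was at 7.12, 7.28 and 7.12 on the knockout arrays and at 7.51, 7.17 and 7.47 on the control arrays. Control 1 and control 3 lay above every knockout array, and control 2 lay among them. The log2 difference of *Ier5* was -0.21 (SE 0.10, interval -0.43 to 0.01, limma adjusted p = 0.378), and all 3 of its probe sets were lower. The mean of 4 measured of 8 meningeal markers, *Col1a1*, *Dcn*, *Lum* and *Col3a1*, was 6.65 to 6.76 on the knockout arrays. It was 6.95, 6.69 and 7.12 on control 1, control 2 and control 3, high on the same 2 control arrays as *Ier5*, and the part of these markers in its value was not tested.

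Over all 61 probe sets, the knockout mean was the lower one at 50 and the higher one at 11 (median -0.17 on the log2 scale), against 47.2% of all tested probe sets that were lower. Probe sets of 1 gene read the same transcripts on the same arrays, so they are not independent and the count is a description. With limma, 0 of the 61 passed an adjusted p of 0.05, against 0.00509% of all tested probe sets, and 2 had a raw p below 0.05, both lower, against 2.94% of all probe sets on that side and 4.75% on the higher side. All 3 knockout values lay below all 3 control values at 6 of 61 probe sets (5.52% of all) and above them at 0 (7.94% of all). The 6 belong to *Ptgs2* (2), *Sgk1* (2), *Atf3* (1) and *Ier5* (1).

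**Figure D2:**
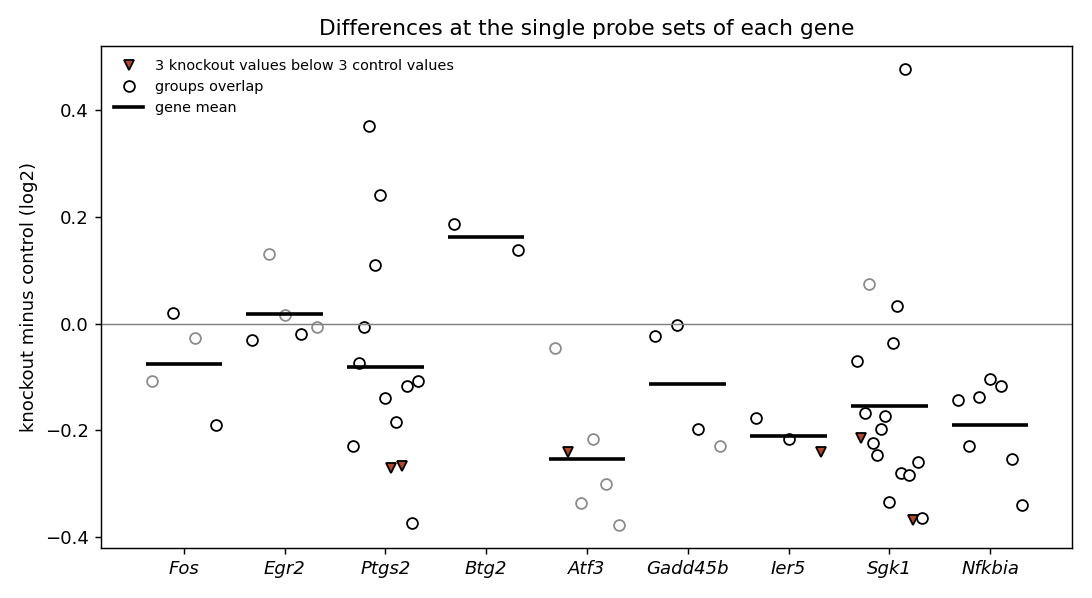
Knockout minus control log2 difference at each of the 61 probe sets, in the order of their IDs within a gene, with the gene mean as a black bar; red triangles mark probe sets where the 3 knockout values lie below the 3 control values, and pale symbols mark the dimmest 1 in 3 of all probe sets. All probe sets of *Atf3*, *Gadd45b*, *Ier5* and *Nfkbia* lie below 0, both of *Btg2* lie above, and *Sgk1* and *Ptgs2* spread to both sides.

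The 9 genes varied more between arrays of the same group than most genes did. The median within-group SD of the 9 was 0.149 log2 unit, against 0.0777 over all 5017 genes and 0.0887 over the 1673 genes of lowest mean signal. *Egr2* had an SD of 0.275, above that of 98.8% of all genes, and *Fos* one of 0.219, above that of 97.4%. *Nfkbia* followed with 0.180 and *Atf3* with 0.162, and the lowest of the 9 was *Sgk1* with 0.116, still at the 79.7th percentile. These are SDs of means over probe sets, and a mean over fewer probe sets is averaged less. *Btg2* had 2, *Ier5* 3, *Fos* and *Gadd45b* 4, *Egr2* 5, *Atf3* 6 and *Nfkbia* 7, all below the median of 8 per gene. *Ptgs2* had 13 and *Sgk1* 17. The part of the number of probe sets in these SDs was not tested. The span between the lowest and highest array was 1.51-fold for *Egr2*, 1.36-fold for *Fos* and 1.28-fold for *Sgk1*.

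*Fos* and *Egr2* varied alike. Set as differences from their own mean over 6 arrays, *Fos* was at -0.20, 0.18 and -0.10 on the knockout arrays and at 0.20, 0.15 and -0.24 on the control arrays. *Egr2* was at -0.21, 0.19 and 0.04 on the knockout arrays and at 0.21, 0.16 and -0.39 on the control arrays, which is the same order of all 6 arrays. The root mean square difference between both profiles was 0.0848 log2 unit, and of 5016 genes 1 was nearer to *Fos* than *Egr2*. It was *Meis1*, a homeobox transcription factor (0.0844), and after *Egr2* came *Bod1* (0.0896), *Ptchd3* (0.0909) and *Edn1*, the gene of the vasoconstrictor endothelin 1 (0.0936). The median over all genes was 0.200. *Ptchd3* was dim, at 3.065 to 3.343 over the 6 arrays, so a gene of very low signal was almost as near to *Fos* as *Egr2* was. Over 12 settings the rank of *Egr2* ran from 1 to 105, the last with the median of probe sets in place of their mean. By the brightest probe set *Egr2* ranked 32, *Meis1* 180, *Edn1* 816, *Bod1* 3307 and *Ptchd3* 4962. *Btg2* shared the low value on control 3 and the high value on knockout 2 but ranked 202, and *Atf3* was the farthest of the 9, at 0.294. These distances rest on 6 arrays and say nothing of shared control.

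Other pairs among the 9 stood less near to each other by rank. *Nfkbia* and *Sgk1* were each other's nearest among the 9, with a root mean square difference of 0.106, and both were high on control 2 and control 3. *Sgk1* ranked 32 of 5016 from *Nfkbia*, but *Nfkbia* ranked 636 from *Sgk1*. *Gadd45b* and *Ier5* were each other's nearest at 0.0894, and both were high on control 1 and low on knockout 1. *Gadd45b* ranked 86 from *Ier5* and *Ier5* ranked 296 from *Gadd45b*, so that many genes outside the 9 were nearer. *Egr2* was the farthest of the 9 from *Nfkbia* (0.331), *Sgk1* (0.309) and *Ptgs2* (0.322), and control 3 was the lowest array for *Egr2* and the highest for these 3. It was also the farthest from *Atf3* (0.336) and *Ier5* (0.288), whose highest arrays were control 2 and control 1. No array was high or low for all 9: knockout 1 and knockout 2 were above the gene's own mean in 3 of 9 each and knockout 3 in 1, against 7 for control 1, 5 for control 2 and 6 for control 3. Of all genes, 48.1%, 50.8% and 50.3% were above their own mean on the knockout arrays and 50.2%, 46.5% and 52.4% on the control arrays.

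**Figure D3:**
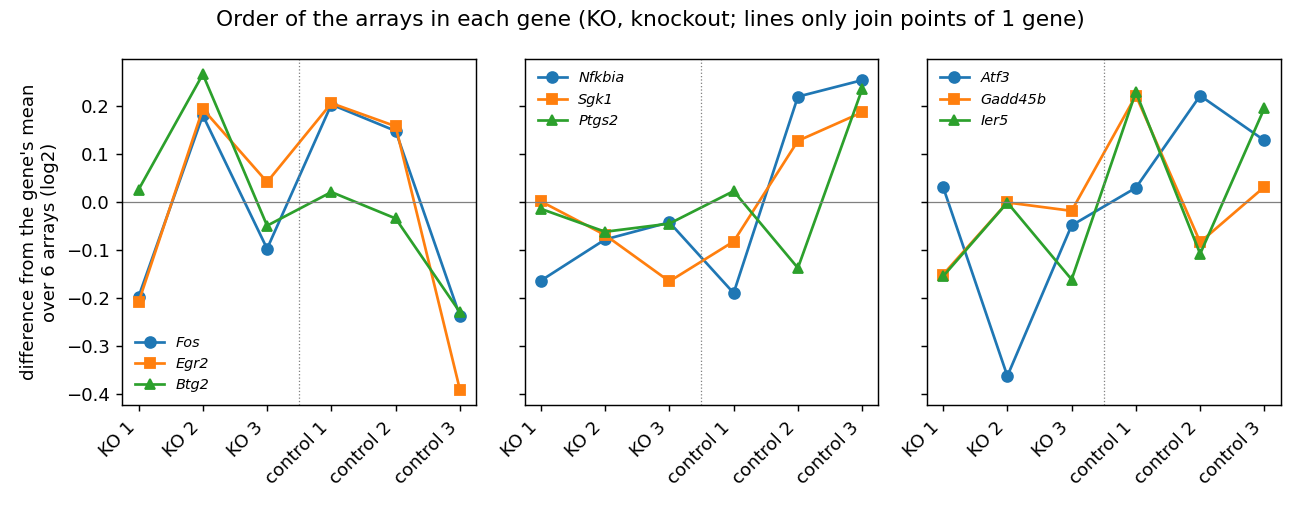
Difference of each array from the gene's own mean over the 6 arrays (log2), with the knockout arrays (KO) left of the dotted line and the control arrays right of it; lines only join the points of 1 gene. *Fos* and *Egr2* put the arrays in the same order, from -0.24 and -0.39 on control 3 to 0.20 and 0.21 on control 1. They lie farthest apart on control 3 and on knockout 3, where *Fos* is at -0.10 and *Egr2* at 0.04. *Nfkbia* and *Sgk1* are high on control 2 and control 3, and *Gadd45b* and *Ier5* peak on control 1.

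Other genes of these pathways were read from lists chosen with earlier results of these data known, and none of their measured members passed the limma threshold. A listed gene that was not measured has no probe set of its own in the deposited table, and may still be on the array. Of 61 further activity-induced genes 19 were measured, of which 12 had a higher and 7 a lower knockout mean (median 0.02 on the log2 scale, where the 9 genes had -0.11). *Homer1*, whose short form is an immediate early regulator of the postsynaptic scaffold, was at 9.04, 9.26 and 9.06 on the knockout arrays and at 8.77, 8.90 and 8.78 on the control arrays. All 3 knockout values were above all 3 control values (log2 difference 0.30, SE 0.07, interval 0.13 to 0.47, limma adjusted p = 0.215), as in 11.3% of all genes. The value of *Homer1* is a mean over 19 probe sets of the gene, and its short form was not read apart. *Rgs2*, an activity-induced inhibitor of G protein signalling, went the other way, at 8.84, 8.96 and 8.93 on the knockout arrays and 9.16, 8.98 and 9.21 on the control arrays (log2 difference -0.21, SE 0.07, limma adjusted p = 0.279). *Pcsk1*, a prohormone convertase, had 0.17 (SE 0.07, limma adjusted p = 0.326).

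Of 28 kinases and factors that act upstream of immediate early genes 9 were measured, and 8 of them had a higher knockout mean (median 0.11 on the log2 scale). In 6 of the 9 all knockout values lay above all control values, which 11.3% of all genes did. *Map2k6*, a kinase of the p38 pathway, had 7.14, 7.19 and 7.09 on the knockout arrays and 6.94, 6.96 and 6.98 on the control arrays (log2 difference 0.18, SE 0.05, limma adjusted p = 0.230), but -0.03 by the median of its probe sets. *Elk4*, a partner of the serum response factor, had 0.17 (SE 0.06, limma adjusted p = 0.258), and *Map2k4*, a kinase of the JNK pathway, 0.11 (SE 0.04, limma adjusted p = 0.346).

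Of 19 glucocorticoid response genes 5 were measured, *Sgk1* and *Nfkbia* among them. The other 3 were all lower: *Ddit4*, an inhibitor of mTOR signalling that stress induces, at -0.16 (SE 0.07, limma adjusted p = 0.368), *Sgk3* at -0.05 and the clock gene *Per1* at -0.05. *Ddit4* was at 7.55, 7.56 and 7.55 on the knockout arrays and at 7.63, 7.64 and 7.86 on the control arrays, with all 3 knockout values below all controls, as in 8.85% of all genes. Without control 3 the difference of *Ddit4* was -0.08, as it was by the median of its probe sets. Of 24 NF-kB genes 8 were measured, and of the 7 beside *Nfkbia* 3 were higher and 4 lower. *Ccl2* was at -0.10, *Rel* at 0.09 and *Tnfaip3*, a feedback inhibitor as *Nfkbia* is, at 0.07. *Ccl3* stood at -0.51 (SE 0.70), and at 0.47 without knockout 2.

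Of 19 genes of the integrated and unfolded protein stress responses 6 were measured, 3 higher and 3 lower, with the sensors *Atf6* at 0.10 and *Ern1* at 0.09. Of 17 heat shock genes 7 were measured, 3 higher and 4 lower, with the chaperone genes *Hspa4* at 0.09, *Hspd1* at 0.11 and *Hspe1* at -0.15. Of 21 genes of the p53 and DNA damage response 11 were measured, and of the 8 beside *Btg2*, *Atf3* and *Gadd45b* 3 were higher and 5 lower. *Mdm4*, an inhibitor of p53, had 0.16 (SE 0.05, limma adjusted p = 0.243), *Sesn1* -0.13 (SE 0.05, limma adjusted p = 0.346) and *Gadd45g*, of the same family as *Gadd45b*, -0.13 (SE 0.05, limma adjusted p = 0.351). In the prostaglandin pathway 4 of 21 genes were measured, and beside *Ptgs2* the phospholipase gene *Pla2g4a* was at -0.07, the thromboxane receptor gene *Tbxa2r* at -0.05 and the prostaglandin E synthase gene *Ptges3* at -0.03.

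**Figure D4:**
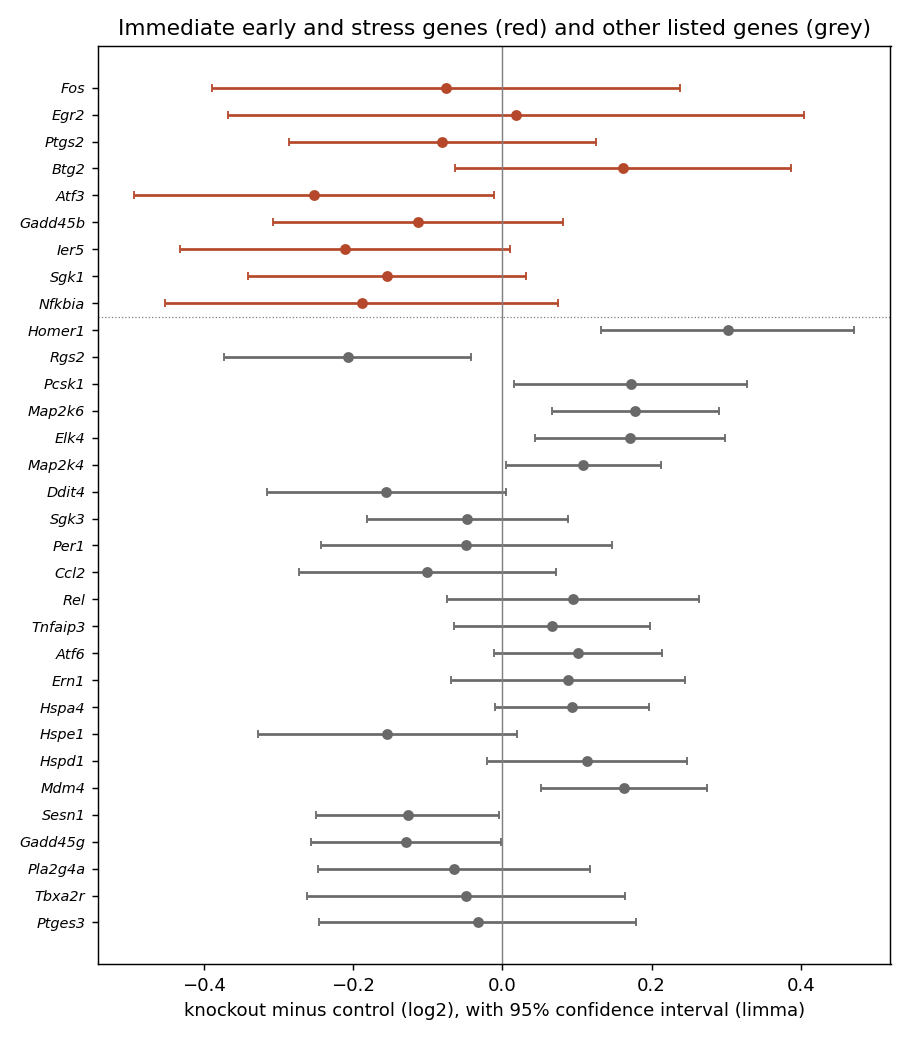
Knockout minus control log2 difference of gene means with the 95% confidence interval of the limma fit, not adjusted for the number of genes, for the 9 genes (red, top) and for the up to 3 genes with the smallest raw p from each further list (grey). Of the 9 intervals only that of *Atf3* leaves out 0, at -0.49 to -0.01, and that of *Homer1* runs from 0.13 to 0.47.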

How the data were processed

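Brain RNA of 3 knockout and 3 control samples was analysed from the table of log2 signals with 2 decimals that the authors deposited. MAS5 is the tool named in the submitters' processing notes. The log2 scale was read from the values (1.69 to 14.41), with the scaling between arrays not given in the sources used here. Of 65535 probe sets, 6616 with IDs below the first annotated one were taken as control features and left out. The 9 genes and those named from the lists lie on chromosomes 1, 10, 11, 12 and 13. The deposited table may therefore hold only part of the array, and this was not checked. Of the 58919 tested, 53644 had 1 symbol, updated through the RefSeq table of GRCm38.p6. No genome build is stated for the array, so probe sets are given without coordinates.

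Knockout minus control was fitted with limma 3.58.1 (lmFit and eBayes, R 4.3.3). Tests were two-sided, and p-values were adjusted by Benjamini-Hochberg across all probe sets or, for means of a gene's probe sets, all 5017 genes, at a threshold of 0.05. The fits were tested on simulated data. The number of arrays limits the precision: 3 against 3 cannot give an exact permutation p below 0.1. The genes, lists and motifs were chosen with earlier results of these data known. Named were the 9 genes, the up to 3 others with the smallest raw p of each list and the 5 nearest to *Fos*. *Gabra6*, *Ccl3*, *Prl* and *Gh* were named after their values were seen. Replicate numbers were not used to pair the samples in the main fit. Alternatives covered normalization, a filter on dim probe sets, the variance model, array weights, the replicate block, arrays left out, the gene summary and the threshold.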

Additional observations from a re-analysis of the deposited data

How the results depend on the processing

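None of the 9 genes passed an adjusted p of 0.05 in any of 15 alternatives, and the smallest adjusted p was 0.160, for *Ier5*. The count of genes past the threshold was 0 in each, with 706 genes at a raw p below 0.05 as deposited and 473 to 849 in the alternatives. Of the 9 genes, 1 had a limma raw p below 0.05 as deposited and 0 with the replicate block. It was 3 of 9 with quantile normalization, median centring or the brightest probe set, where 704, 734 and 482 of 5017 genes had one. *Atf3*, *Gadd45b*, *Ier5*, *Sgk1* and *Nfkbia* were lower in all 15 alternatives, though *Gadd45b* was at -0.00333 by its brightest probe set. By that summary *Sgk1* was at -0.28, *Ptgs2* at -0.27, *Atf3* at -0.24, *Nfkbia* at -0.23, *Ier5* at -0.22 and *Btg2* at 0.19. There 7 of the 9 were lower, against 56.7% of all genes. With 1 array left out, *Gadd45b* ran from -0.18 to -0.031 and *Nfkbia* from -0.33 to -0.11. *Fos* was at 0.02 by its brightest probe set and ran from -0.21 to 0.00667 with 1 array left out. *Egr2* was at -0.002 with median centring, -0.025 without the dimmest 1 in 3 probe sets, -0.11 with array weights, -0.04 by the median of probe sets and -0.03 by the brightest, and ran from -0.17 to 0.13 with 1 array left out. *Ptgs2* ran from -0.17 to 0.017 with 1 array left out. With knockout 2 and control 3 both left out, which was chosen after the data were seen, *Egr2* was at -0.27, *Ptgs2* at 0.028, *Btg2* at -0.005, *Tbxa2r* at 0.072 and *Ccl3* at 0.44. By the median of probe sets, *Map2k6* was at -0.03, *Per1* at 0.013 and *Ern1* at -0.01. By the brightest probe set *Tbxa2r* was at 0.12 and *Ccl3* at 0.04. With 1 array left out, the ranges were -0.12 to 0.031 for *Per1*, -0.13 to 0.00272 for *Pla2g4a*, -0.14 to 0.013 for *Tbxa2r*, -0.13 to 0.045 for *Ptges3*, -1.03 to 0.47 for *Ccl3* and -1.19 to 0.47 for *Gabra6*. The cause was not tested.

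Of all probe sets, 3 passed, all higher. The count was 6 with quantile normalization (4 higher), 7 with median centring (5 higher), 7 with array weights, 19 without dim probe sets, 21 with trend and robust moderation, 7 at adjusted p below 0.1, 0 with knockout 2 and control 3 left out and 0 to 4 with 1 array left out. None of these was a probe set of the 9 genes. At a raw p below 0.05, 56.5% of genes were higher as deposited, 40.6% after quantile normalization, 38.8% after median centring and 38.6% by brightest probe sets. The fit with the replicate number as a block called 0 probe sets and 0 genes. Same-numbered samples did not deviate together over 5017 genes (correlations 0.021, -0.08 and -0.057). With 3 arrays in a group this cannot exclude a pairing, and the labels give no batch. Depth has no counterpart here, and 12 of the 61 probe sets lay under the signal of 5.82 that bounds the dimmest 1 in 3.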
